A study of Mus musculus with 3 samples.

Results

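The genes described here encode 10 nuclear receptors that pair with RXRα, namely Ppara, Ppard, Pparg, Nr1h2, Nr1h3, Nr1h4, Nr1i2, Nr1i3, Thrb and Vdr. They were chosen by name from the 22380 protein-coding genes of the mouse annotation GENCODE M1. For each gene, binding was read in a window made of the gene body and 10 kb on either side of the transcriptional start site (TSS), which is the 5′ end of the gene. Binding was measured by ChIP-seq, in which DNA bound by a protein is pulled down with an antibody and sequenced. The chromatin came from livers of male wild type C57BL/6 mice, aged 3 months in the sample labels, for which the labels name no treatment. There were 3 libraries, 1 each for RXRα, for RARα and for input chromatin that was not precipitated. With 1 library each there is no replicate check, so no p-values are given. Intervals are 95% intervals, exact Poisson for reads and Wilson for shares, and cover counting error only. Whole liver was used, so a weak signal in every hepatocyte and a strong signal in few cells cannot be told apart.

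RXRα is the shared partner of many nuclear receptors that sense lipids, drugs and hormones. The pair binds DNA at 2 copies of a short half-site, and the order and spacing of the copies help to decide which pair can bind. RARα, the receptor for retinoic acid, is itself a partner of RXRα. Binding of RXRα or RARα at a receptor gene places that gene among the candidate targets of retinoid signaling, although binding alone does not show that its expression is controlled.

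The RXRα and input files held coverage in bins of 32 bp, and summed to 9999939 RXRα reads and 9999292 input reads. The RXRα total is below the number of mapped reads in the paper, and the intervals take the track reads as counts. A bin was called RXRα-bound where its RXRα coverage was at least 20 times input, and bound bins within 200 bp were joined to a region. Input was taken as the larger of the bin's own value and the genome mean of 0.603 reads. The RARα file was a list of 143280 peaks that gives no read counts, of which 32946 had a score above 20 and were kept. A RARα peak was called co-localized where it shared at least 25% of the narrower interval with an RXRα region. As a check of the tissue, all 10 of 10 hepatocyte marker genes had a RARα peak, an RXRα region and a co-localized peak in their windows. Of 11 markers of other liver cells, 5, 2 and 2 did, and of 5 markers of other tissues, 3, 2 and 1 did.

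RARα and RXRα bound most of the receptor genes. A filtered RARα peak was found at 9 of 10 genes, compared with 57.9% of all protein-coding genes. An RXRα region was found at 8 of 10, compared with 47.9%. A co-localized peak was found at 7 of 10, compared with 27.2%. When 25% of the wider interval was required, this was 5 of 10 compared with 14.3%, without Nr1h3 and Nr1i3. Pparg and Nr1h2 had a RARα peak without co-localized RXRα, and Vdr had neither. In all, the 10 windows held 55 RARα peaks and 96 RXRα regions, and 33 of the peaks were co-localized.

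**Figure D1:**
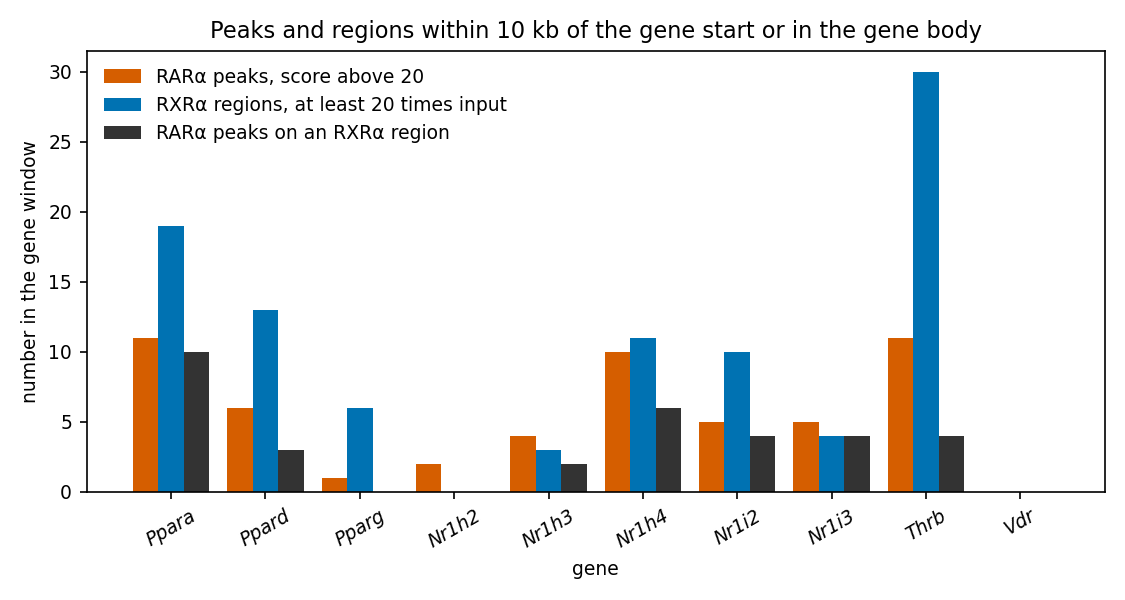
Number of filtered RARα peaks, RXRα regions and co-localized RARα peaks (vertical axis) in the window of each receptor gene (horizontal axis). Thrb had the most RXRα regions (30), Ppara the most co-localized peaks (10), and Vdr had none of the 3.

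These genes were long, with a median of 62.0 kb compared with 15.4 kb for all genes, and a long window has more room for peaks. Per 100 kb of window, the genes had a median of 9.42 RARα peaks (all genes 1.67) and 11.4 RXRα regions (all genes 0). Within 10 kb of the TSS alone, where the window is of equal length for every gene, a RARα peak was present at 8 of 10 genes (all genes 52.2%). There an RXRα region was present at 7 of 10 (all genes 39.8%) and a co-localized peak at 6 of 10 (all genes 23.5%). The higher share of co-localized genes was therefore also seen without the gene bodies.

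The strongest RXRα coverage in a single bin separated the receptor genes into levels. Nr1i2 had the highest value with 272 reads (95% interval 241 to 306), followed by Ppara with 179 (154 to 207) and Nr1i3 with 131 (109.5 to 155). Nr1h4 had 107 reads (87.7 to 129), Ppard 102 (83.2 to 124), Thrb 101 (82.3 to 123) and Pparg 90 (72.4 to 111). Nr1h3 had 44 (32 to 59.1), Nr1h2 had 18 (10.7 to 28.4) and Vdr had 6 (2.20 to 13.1). In this order the intervals of adjacent genes did not overlap between Nr1i2 and Ppara, between Pparg and Nr1h3, and between Nr1h3 and Nr1h2. Those of the other adjacent genes overlapped. Each value is a maximum, and longer windows offer more bins. The bins of Ppara and Nr1i3 lay at 52684 and -9524 bp from the TSS. Both were in regions nearer to the TSS of another gene, 2210021J22Rik and Pcp4l1. The median over all genes was 18 reads, and the input library had 0 to 5 reads in the same bins. By the ratio over input the order was different, with Thrb first at 164, then Nr1i2 at 136 and Ppara at 130.0. The value at Thrb rests on a bin without an input read, where the genome mean stood in for input.

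**Figure D2:**
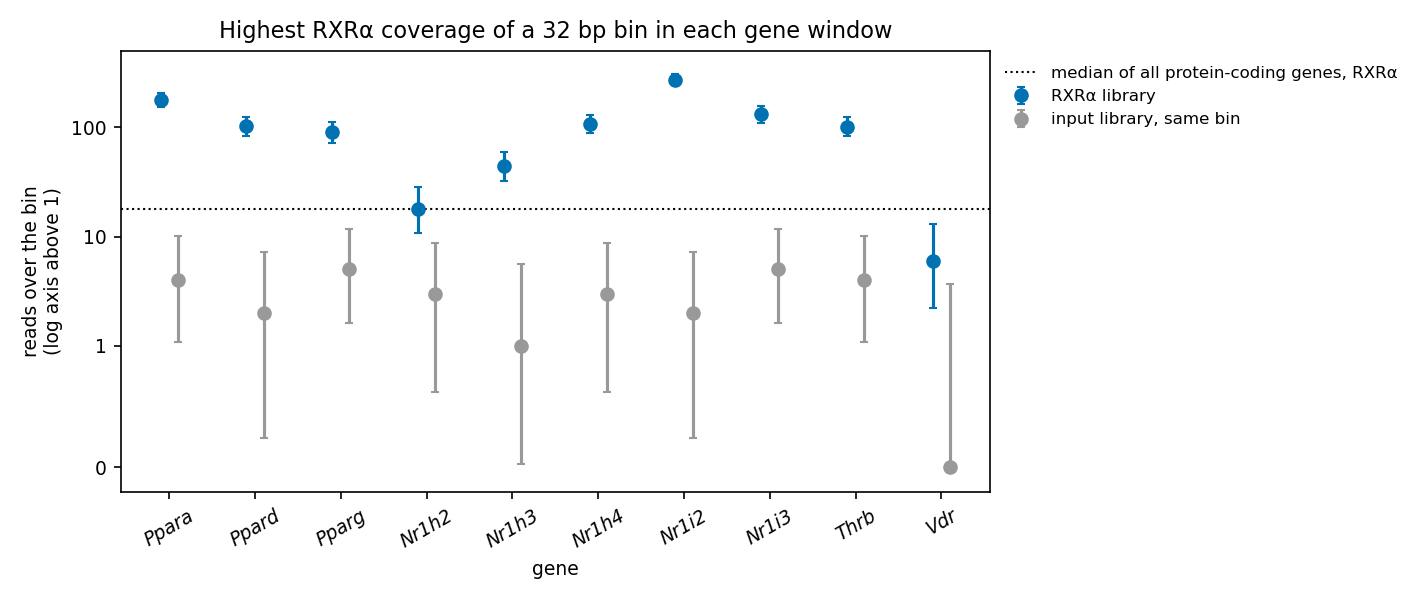
Highest number of RXRα reads over a 32 bp bin in the window of each gene, and the input reads over the same bin (vertical axis, logarithmic above 1 read), with exact Poisson 95% intervals as bars. Nr1i2 was highest at 272 reads, and Nr1h2 and Vdr were the genes at or below the dotted median of all protein-coding genes (18 reads).

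Nr1i2 (ENSMUSG00000022809.4, chromosome 16, 38248409 to 38294910, minus strand, NCBI37/mm9) encodes PXR, which senses drugs and bile acids and induces enzymes such as the cytochromes P450 of the Cyp3a family. Its window held 5 RARα peaks, 4 of them co-localized, and 10 RXRα regions. Over the whole window 2438 reads came from RXRα and 451 from input. Their ratio, 5.40 (4.89 to 5.99), was above that of 99.2% of all genes. The RXRα regions formed a cluster in the gene, and 9 of 10 were at or above 50 times input in their highest bin. The genome mean stood in where that bin had no input read. Their ratios ran from 46.5 to 136.

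The region with the highest coverage lay in an intron, 5774 bp downstream of the TSS, and had 272 RXRα and 2 input reads in its highest bin. It was covered by a RARα peak that scored 27 and had the highest RXRα enrichment of the gene, 30.4. RXRα enrichment is the mean RXRα signal over a RARα peak divided by mean input, or by the genome mean of 0.603 where that is larger. The RARα peak with the highest score of the gene (70) lay at the TSS itself, 20 bp downstream in an untranslated exon, where the RXRα region reached a ratio of 84.6 with 51 RXRα reads. RARα was therefore scored higher at the TSS, and RXRα coverage was higher in the intron.

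Nr1i3 (ENSMUSG00000005677.7, chromosome 1, 173144101 to 173150832, plus strand) encodes CAR, the other xenobiotic receptor of the liver. Its window held 5 RARα peaks, 4 of them co-localized, and 4 RXRα regions, with 704 RXRα and 197 input reads. At the TSS, a RARα peak with a score of 45 lay over an RXRα region with a ratio of 64.7. That ratio came from 39 reads over no input read, and was 13.0-fold against the limit of 3 reads. The region with the highest ratio, 76.0 from 76 reads over 1 input read, was at -9589 bp, and the co-localized peak there had the highest RXRα enrichment of the gene, 15.2. The bin with the most RXRα reads of the gene (131, with 5 input reads) lay in the same region, at -9524 bp. That peak and that region are nearer to the TSS of Pcp4l1. The RARα peak with the highest score (64) lay at 7024 bp, past the end of the gene, and 2 of 5 peaks were nearer to the TSS of Tomm40l. The last peak, at 9974 bp, was just inside the window and nearer to Apoa2. Of the 5 RARα peaks at Nr1i3, only the peak at the TSS was nearest to Nr1i3.

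The genes for the fatty acid receptors differed from each other. Ppara (ENSMUSG00000022383.7, chromosome 15, 85565413 to 85633249, plus strand) encodes PPARα, which drives fatty acid oxidation in the fasting liver. All but 1 of its 11 RARα peaks were co-localized, and it had 19 RXRα regions. The window ratio was 4.58 (4.22 to 4.98), from 3262 RXRα and 712 input reads, above that of 98.3% of all genes. The RARα peaks lay mainly in 3 places. Around the TSS, 3 RARα peaks lay between -218 and 732 bp, with scores of 49, 40 and 57. Those scoring 49 and 40 were co-localized with an RXRα region with 46 reads over no input read. Its ratio was 76.3, or 15.3-fold against the limit of 3 reads. The peak scoring 57 overlapped less of that region. It was co-localized with a single bin at 1003 bp, with 13 reads over no input read, a ratio of 21.6, or 4.33-fold against the limit. Upstream, the region at -2949 bp had 101 reads and no filtered RARα peak, while the RARα peak at -2118 bp held 313 RXRα reads against 21 input reads. In the gene, peaks between 36392 and 52697 bp downstream were all co-localized, with RXRα enrichments from 5.18 to 33.7. A further RARα peak at 27912 bp was not co-localized. RXRα regions without a filtered RARα peak also lay between these places, the strongest by reads at 7819 bp with 105.

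The highest ratio at Ppara (130.0, from 130 reads over 1 input read) was in the intron 36379 bp downstream of the TSS, under the RARα peak with the highest enrichment of the gene, 33.7. The transcript Ppara-006 starts at 37231 bp. Within 1 kb of its start there were 2 RARα peaks and 551 RXRα against 28.4 input reads, whereas the same distance around the TSS held 188 against 14.8. A second transcript start was thus more heavily covered by RXRα than the TSS. The 3 most downstream of the 11 peaks were nearer to the TSS of 2210021J22Rik than to that of Ppara.

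Ppard (ENSMUSG00000002250.9, chromosome 17, 28369699 to 28438414, plus strand) encodes PPARδ, which is expressed in many tissues. It had 6 RARα peaks, 3 of them co-localized, and 13 RXRα regions, with 1293 RXRα and 399 input reads in the window. The RARα peak with the highest score (78) was at -174 bp. RXRα enrichment there was 5.73, and no RXRα region was co-localized with it. The peak at -6499 bp had a score of 68 and lay over an RXRα region with 92 reads. The peak at 55506 bp had a score of 31 and the highest RXRα enrichment of any receptor gene peak, 44.7, from 83.4 RXRα reads and input below the genome mean, which was used in its place. The RXRα region with the highest ratio was elsewhere, at 46653 bp, where 67 reads over no input read gave a ratio of 111. Against a limit of 3 reads for a count of 0 it was 22.3-fold, which leaves out the counting error of the 67 reads. No RARα peak of any score was co-localized with that region. Of the 6 RARα peaks, the 3 in the distal part of the gene were nearer to the TSS of Fance.

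Pparg (ENSMUSG00000000440.6, chromosome 6, 115311239 to 115440419, plus strand) encodes PPARγ, the receptor that drives the making of fat cells. It had no RARα peak above 20 and no RXRα region within 10 kb of its TSS, where there were 5 RXRα and 6 input reads within 1 kb. Its only RARα peak, at 105561 bp, scored 21, just above the threshold, and RXRα enrichment there was 3.33. The 6 RXRα regions lay between 57833 and 105705 bp. An inner transcript of Pparg starts at 60845 bp, and within 1 kb of that start there were 193 RXRα and 23.8 input reads and 1 region. The bin with the most RXRα reads of the gene (90, with 5 input reads) was also there, at 60586 bp, and was itself below 20 times input. The highest ratio was 59.7 at 101897 bp, from 36 reads over no input read, or 12.0-fold against the limit of 3 reads. At Pparg, RXRα coverage was therefore seen at the inner transcript start and not at the outer one.

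**Figure D3:**
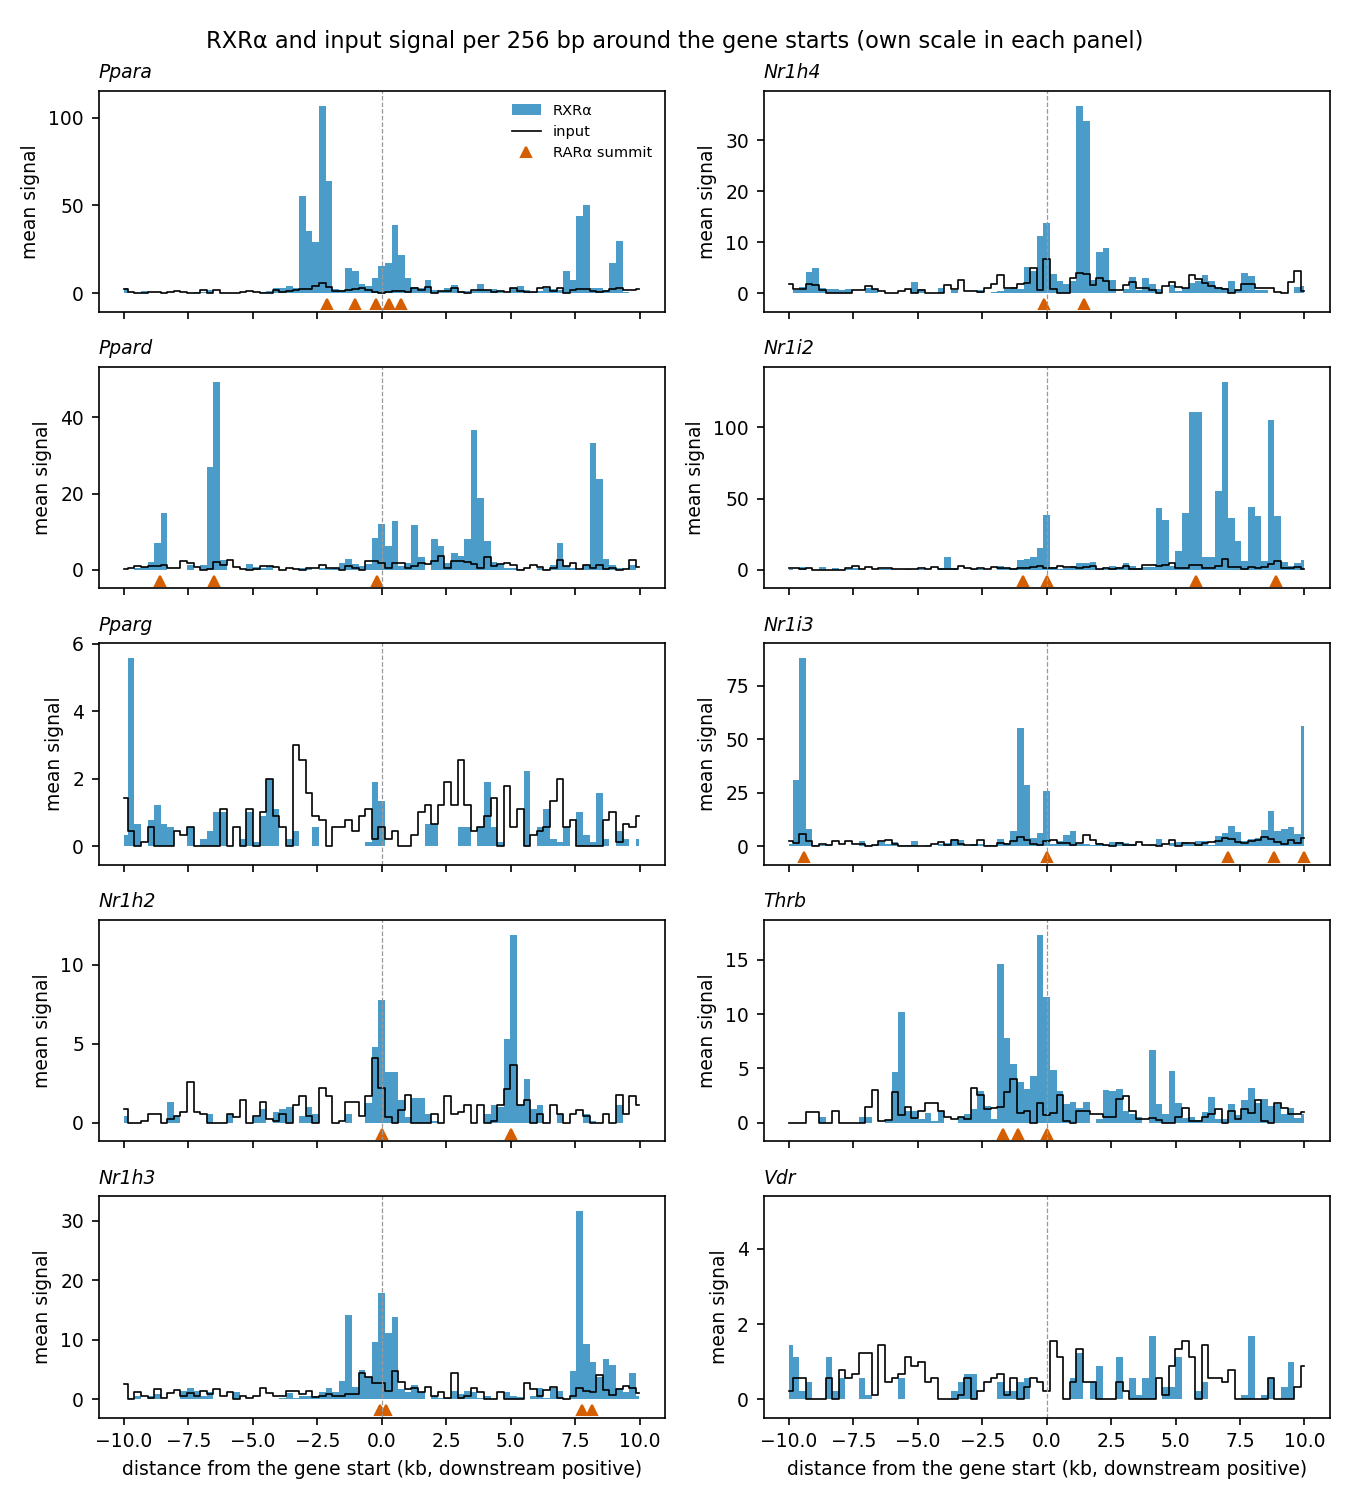
Mean signal of RXRα (blue bars) and input (black line) per 256 bp within 10 kb of the TSS of each gene, with triangles at the summits of filtered RARα peaks. Each panel has its own vertical scale, which reaches over 100 at Ppara and Nr1i2 and stays below 6 at Pparg and Vdr.

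The genes for sterol and bile acid receptors were bound to different extents. Nr1h4 (ENSMUSG00000047638.9, chromosome 10, 88916979 to 88996330, minus strand) encodes FXR, which senses bile acids and lowers their synthesis. It had 10 RARα peaks, 6 of them co-localized, and 11 RXRα regions, with 1714 RXRα and 761 input reads in its window. The peak with the highest score (53) lay at 1435 bp over a region with 53 reads. The peak at -115 bp had a score of 41 and a region with 23 reads. The transcript Nr1h4-001 and another start 26936 and 26927 bp inside the gene, and a RARα peak with a score of 41 lay there over a region with 27 reads. Both transcript starts thus had RARα and RXRα. The highest enrichment at a co-localized peak, 16.8, was at 62705 bp, and 5 of 10 peaks were nearer to the TSS of Gas2l3. The region with the highest ratio (89.6, from 54 reads over no input read, at least 18.0-fold) was at 14138 bp and had no filtered RARα peak.

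Nr1h3 (ENSMUSG00000002108.4, chromosome 2, 91024218 to 91042991, minus strand) encodes LXRα, which senses oxidized cholesterol and induces sterol export and fatty acid synthesis. It had the receptor genes' highest RARα scores, 89 at -84 bp and 88 at 156 bp, in peaks that abut at the TSS. RXRα enrichment under them was 4.47 and 4.39, and the RXRα region at the TSS had 15 reads. The second of them was co-localized. A further RARα peak, with a score of 53, lay 7786 bp downstream at the starts of 5 shorter transcripts, among them Nr1h3-001, and the RXRα region there was the strongest of the gene, with 44 reads and a ratio of 44.0. The RARα score was thus higher at the outer start, and the highest RXRα bin was at the inner starts. Summed over 1 kb on either side, RXRα reads were similar, with 102 at the outer start and 97.6 to 109 at the inner ones. Input was higher at the outer start, with 38 reads against 15.6 to 18, so RXRα over input was lower there. The peak at -84 bp and 1 of 3 regions were nearer to the TSS of Acp2, which lies beside Nr1h3.

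Nr1h2 (ENSMUSG00000060601.6, chromosome 7, 51804986 to 51809321, minus strand) encodes LXRβ, the widely expressed relative of LXRα. It had 2 RARα peaks and no RXRα region. The peak at the TSS had a score of 24 and 24.6 RXRα against 10 input reads. The peak past the 3′ end, at 5006 bp, had a score of 40 and was nearer to the TSS of Pold1. The highest ratio in the window was 13.3, below the threshold, and the window ratio was 1.09 (0.819 to 1.47). Summed over the window, RXRα therefore did not exceed input beyond counting error, while its paralog Nr1h3 had a window ratio of 1.88 (1.58 to 2.26).

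Thrb (ENSMUSG00000021779.9, chromosome 14, 18493474 to 18870602, plus strand) encodes TRβ, the main thyroid hormone receptor of the liver. It is the longest of the receptor genes at 377 kb, and had 11 RARα peaks, 4 of them co-localized, and 30 RXRα regions. Per 100 kb it had 7.75 RXRα regions, fewer than Ppara (24.4) or Nr1i2 (17.7). The RARα peak with the highest score (67) lay at the TSS and was 1341 bp wide, with 68.6 RXRα and 8 input reads, but no bin there reached 20 times input. The co-localized peak with the highest RXRα enrichment, 10.8, was at 64561 bp. RXRα was strongest at intronic regions without a filtered RARα peak. At 238974 bp the region had 99 reads over no input read, a ratio of 164 and at least 33.0-fold, and at 20670 bp it had 95 reads, a ratio of 158 and at least 31.7-fold. The transcripts Thrb-001 and Thrb-202, which start 320684 and 340325 bp into the gene, had 8 and 6 RXRα reads and no region within 1 kb.

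Vdr (ENSMUSG00000022479.9, chromosome 15, 97684856 to 97741061, minus strand) encodes the vitamin D receptor, best known for calcium uptake in the intestine. It was the only receptor gene with no RARα peak and no RXRα region. The window held 125 RXRα and 165 input reads, a ratio of 0.756 (0.596 to 0.962), so RXRα coverage was below input. This was not unusual, as 29.7% of all genes had a lower ratio. The markers of other liver cells had a median of 0.777. Its highest bin had 6 RXRα reads. In the RARα list without a score threshold, 4 peaks fell in the window, the highest with a score of 10.

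**Figure D4:**
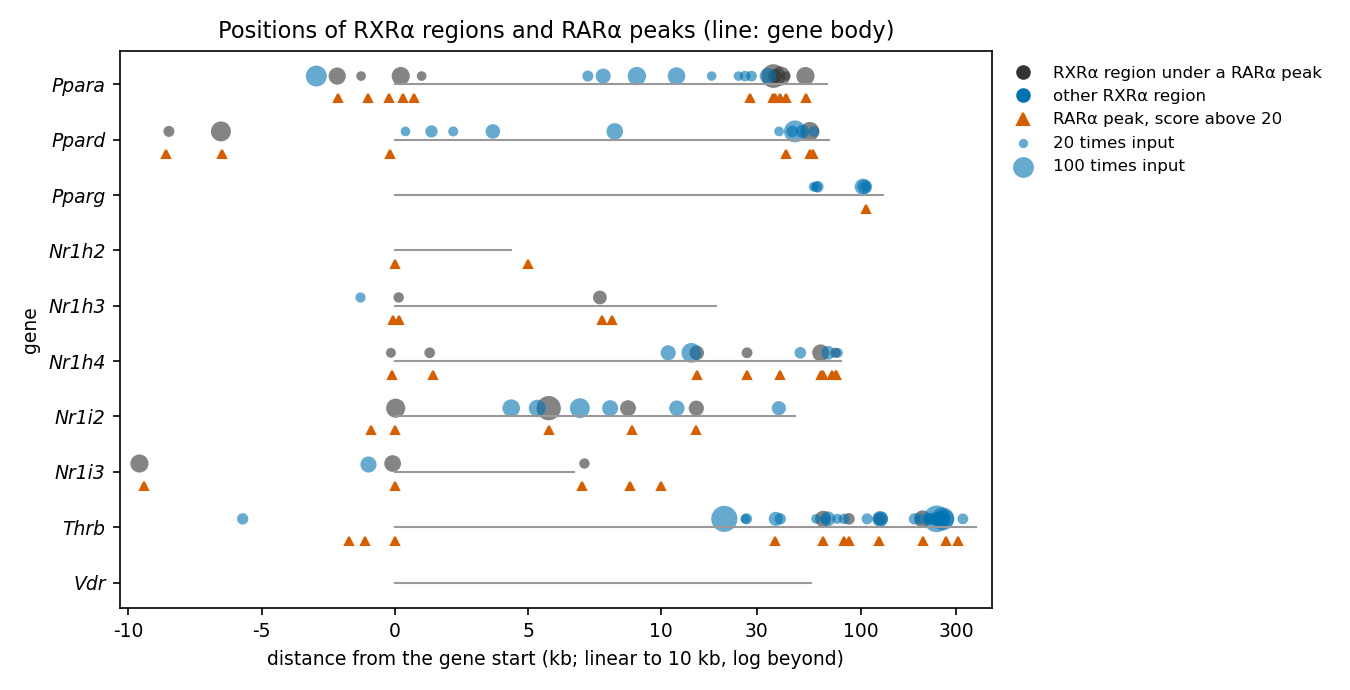
Distance from the TSS of each RXRα region (circle, area growing with its ratio over input, dark where a filtered RARα peak is co-localized) and each filtered RARα peak (triangle) at the receptor genes, on an axis that is linear to 10 kb and logarithmic beyond. Thrb and Ppard had large blue circles in the gene with no co-localized RARα peak, and the TSS of all genes but Pparg and Vdr had a RARα peak.

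In counts pooled over the genes, more of the RXRα regions than of the RARα peaks lay far from the TSS. Of the 55 RARα peaks, 12 lay within 1 kb of the TSS, 16 at 1 to 10 kb and 27 farther. Of the 96 RXRα regions, 6, 26 and 64 did, and 80 were in introns. The pooled counts lean on Thrb, the longest gene. It gave 30 of the regions, with 1 within 10 kb of its TSS, and 11 of the peaks, with 3 within 10 kb. The distances were not compared with those of peaks and regions at all genes. A RARα peak lay within 1 kb of the TSS at 8 of 10 genes (all genes 40.8%), and an RXRα region at 6 of 10 (all genes 21.5%). The genes with a RARα peak but no RXRα region at the TSS were Nr1h2 and Thrb.

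The base composition of the starts also differed. The CpG ratio, which compares the CG pairs in 501 bp around the TSS with the number that the C and G content would give, was 0.171 at Nr1i2, 0.169 at Nr1i3, 0.191 at Vdr and 0.330 at Nr1h4. At the other genes it ran from 0.633 at Ppara to 0.963 at Nr1h2. Over all genes, a RARα peak lay within 1 kb of the TSS in 69.7% of those with a CpG ratio above 0.6 and in 13.0% of the others. For an RXRα region the shares were 32.1% and 11.4%. Nr1i2, Nr1i3 and Nr1h4 had CpG-poor starts with a RARα peak and an RXRα region, and Pparg had a CpG-rich start with neither. The 150 bases before a CpG-poor and a CpG-rich start with a RARα peak are shown on the strand of the gene, with each CG in capitals. There are 2 at Nr1i2 and 18 at Thrb.
Nr1i2, chr16:38294911-38295060, minus strand: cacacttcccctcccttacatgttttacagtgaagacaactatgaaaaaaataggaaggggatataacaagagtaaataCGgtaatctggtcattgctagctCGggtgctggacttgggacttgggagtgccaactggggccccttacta
Thrb, chr14:18493324-18493473, plus strand: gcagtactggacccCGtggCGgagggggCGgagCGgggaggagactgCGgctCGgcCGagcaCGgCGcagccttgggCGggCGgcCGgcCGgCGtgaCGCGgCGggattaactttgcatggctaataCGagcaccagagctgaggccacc

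By the narrower interval, the share of RARα peaks that were co-localized was 60% at the receptor genes (33 of 55, 46.8 to 71.9), compared with 32.6% (32 to 33.1) of the 26057 RARα peaks in the window of any gene. By the wider interval the shares were 29.1% (16 of 55, 18.8 to 42.1) and 15.5% (15 to 15.9). Peaks of 1 gene are not independent, and Ppara alone gave 10 of the 33. Seen from RXRα, the difference was smaller, since 32.3% (23.8 to 42.2) of the regions at receptor genes were co-localized and 28.9% (28.3 to 29.4) of those in any gene window, so these intervals overlapped. The RARα score had a median of 33 in co-localized peaks and 26.5 in the 22 others, with ranges of 21 to 88 and 21 to 89. RXRα enrichment had a median of 10.8 in the co-localized peaks and 4.30 in the others, which follows in part from how co-localization was defined.

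**Figure D5:**
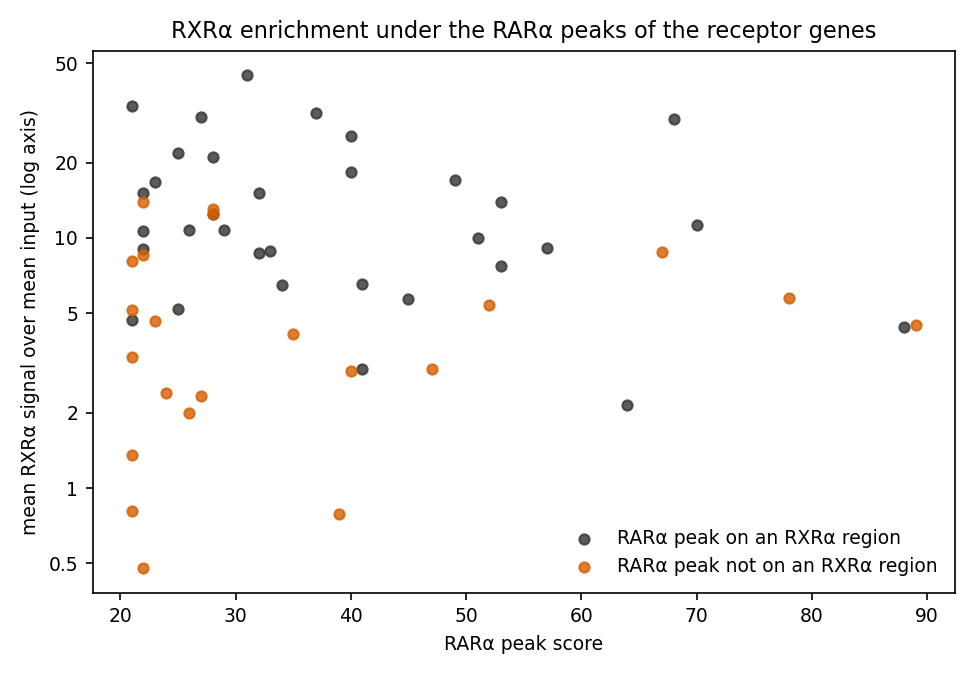
Mean RXRα signal over mean input (vertical axis, logarithmic) against the RARα score (horizontal axis) for the 55 RARα peaks at the receptor genes, dark where co-localized. Peaks with scores above 60 had enrichments between 2.15 and 29.9, and the highest enrichment, 44.7, was at a peak with a score of 31.

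Of the 96 RXRα regions, 31 had a RARα peak with a score above 20, 28 had only a peak at or below 20, and 37 had no RARα peak of any score. The last class made up 38.5% of the regions at receptor genes and 46.7% of all 42117 RXRα regions. It was unevenly spread, with 17 of 30 regions at Thrb and 9 of 13 at Ppard, but 1 of 10 at Nr1i2 and 0 of 4 at Nr1i3. The strongest of these regions by ratio were at Thrb (256606 bp, 121, 73 reads) and Ppard (46653 bp, 111, 67 reads), both without an input read.

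The regions were searched for repeats of the half-site AGGTCA and its variants, which were AGTTCA as well as GGGTCA along with GGTTCA, on both strands and within 100 bp of the highest bin or summit. Direct repeats with 0 to 5 bases between the copies (DR0 to DR5), inverted repeats with 1 base (IR1) and everted repeats with 6 or 8 bases (ER6, ER8) were counted. As background, PPARα pairs are known for DR1, LXR and TRβ pairs for DR4, FXR pairs for IR1 and RARα pairs for DR2 and DR5. At least 1 half-site was present in 64.6% (54.6 to 73.4) of the receptor gene regions and 64.8% of all RXRα regions, against 37.6% of windows 500 bp beside them. An exact repeat was present in 3 of 96 regions, or 3.12% (1.07 to 8.79), compared with 4.55% of all regions and 1.04% beside them. None was found in the 55 RARα peaks, which allows a share of up to 5.45% by the limit of 3 counts and 6.53% by the Wilson interval, and 0.999% of all filtered RARα peaks had one. The interval for the receptor genes included the share of all regions. The 3 repeats lay in or beside RXRα regions without a filtered RARα peak, at Ppard and Thrb, and the first was in the Ppard region with the highest ratio, the second in the Thrb region at 20670 bp. They are shown with 10 bases on either side and the half-sites in capitals.
Ppard DR2, chr17:28416381-28416414, plus strand: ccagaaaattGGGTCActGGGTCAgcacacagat
Thrb DR2, chr14:18514076-18514109, minus strand: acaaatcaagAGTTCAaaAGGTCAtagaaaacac
Thrb DR4, chr14:18519746-18519781, plus strand: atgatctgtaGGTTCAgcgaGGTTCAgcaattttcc

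With 1 other letter allowed in 1 of the copies, a search added after the exact repeats had been seen to be few, 24 of 96 regions had a repeat. This is 25% (17.4 to 34.5), compared with 31.9% of all RXRα regions and 12.0% of the windows beside them. Of the 55 RARα peaks 8 had one, 14.5% (7.56 to 26.2), compared with 11.5% of all filtered peaks and 11.0% beside them. The 4 sequences that follow lay under co-localized peaks, at the region of Ppara with the most RXRα reads and at strong regions of Nr1i2, Ppard and Nr1i3. They are examples and do not stand for the 24 regions. Repeats were also found in regions without a filtered RARα peak, among them regions of Thrb and Ppard. The Nr1i2 region with the most RXRα reads held a DR4, which is not shown. Both half-sites are in capitals, also the one with the other letter. The Ppara sequence also holds a DR2 with 1 other letter, which shares the AGGTCA copy. The other copy of that DR2 is left in small letters. A match of letters is a description and does not show which receptor pair was bound.
Nr1i2 DR1, chr16:38279971-38280003, minus strand: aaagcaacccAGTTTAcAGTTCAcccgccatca
Ppara DR1, chr15:85618029-85618061, minus strand: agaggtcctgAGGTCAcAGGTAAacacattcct
Ppard DR3, chr17:28425228-28425262, plus strand: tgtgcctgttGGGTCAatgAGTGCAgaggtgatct
Nr1i3 DR4, chr1:173134541-173134576, plus strand: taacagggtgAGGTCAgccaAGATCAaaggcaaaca

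The other nuclear receptor genes had lower medians, with overlapping values. Of 39 such genes, 30 had a RARα peak, 28 an RXRα region and 24 a co-localized peak. The 39 genes include those of the RAR and RXR families, so the group is not one without RXRα partners. Their median highest ratio was 59.7, compared with 82.8 for the 10 receptor genes and 19.9 for all genes. It was 48.0 for genes with at least 1 RXRα region. These maxima come from windows of unequal length, and within 10 kb of the TSS the medians were 33.2 for the 39 genes, 36.9 for the 10 receptor genes and 14.9 for all genes. The highest among them were Hnf4a (159), Rora (136) and Nr6a1 (130.0), close to Thrb, Nr1i2 and Ppara. The median number of RXRα regions per 100 kb was 4.84 in this group and 11.4 at the 10 receptor genes.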

How the data were processed

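RXRα, RARα and input ChIP-seq libraries of wild type mouse liver were analysed, with 1 library each, as grouped by the sample labels. The submitters' processing notes name CASAVA 1.4 and Bowtie for all libraries and MACS for RARα. The authors deposited the RXRα and input values as a signal, which is coverage in bins of 32 bp on NCBI37/mm9. Each read covers 5 bins, so read numbers are signal sums divided by 5 and need not be whole, and a bin's value is the number of reads over it. For RARα the authors deposited a score and a false discovery rate in percent for each peak. What the score measures is not stated in the list, and no peak was removed by its percent. Alignment was to mm10 in the paper's methods, but the file headers name mm9, and 0 peaks lay beyond a chromosome end.

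The tracks were brought to 1 common mean. The score threshold of 20, the 20-fold threshold over input, the distance of 10 kb and the 25% overlap follow the paper's methods. Taking the overlap of the narrower interval, the joining distance of 200 bp, the added gene bodies and the input minimum of 0.603 were chosen here. Peaks were assigned by summit and regions by midpoint. For a single named region of the receptor genes whose highest bin had no input read, the ratio is given also against the limit of 3 reads. Ranges and medians of ratios are not. That value leaves out the counting error of the RXRα reads, and the exact Poisson interval of a count of 0 reaches 3.69 reads. All 10 receptor genes are named with their highest-scoring peak, highest region and most enriched co-localized peak, as are the 3 highest of the other receptor genes, and neighboring genes where over 25% of peaks or regions lay nearer to them, except for items that are not reported here. Pcp4l1, Apoa2 and the peak at -84 bp of Nr1h3 were named after their values were seen. The receptor genes and lists were chosen with earlier results of these data known. The CpG ratio was added after the data were seen. Motif searches covered 100 bp on either side of a summit or highest bin. Region calling, overlap and motif search were tested on simulated data. Python 3.11.15, numpy 2.4.6, pandas 2.3.3, scipy 1.17.1, pysam 0.24.0 and matplotlib 3.10.9 were used.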

Additional observations from a re-analysis of the deposited data

How the results depend on the processing

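No paired analysis was possible because each antibody has 1 library. Over 17 alternative settings, of which the overlap by the wider interval was chosen after seeing the data, the number of the 10 receptor genes with a RARα peak was 7 to 10, with an RXRα region 6 to 9, and with a co-localized peak 5 to 9. Numbers of peaks moved more, as the settings add or remove sequence or calls by construction. The 55 RARα peaks became 299 without a score threshold, 12 above a score of 50, 28 within 10 kb of the TSS without the gene body, 12 within 1 kb and 36 when counted at the nearest TSS only. The 96 RXRα regions became 165 at 10 times input, 62 at 30 times, 32 within 10 kb and 6 within 1 kb. The 33 co-localized peaks became 68 without a score threshold, 8 above 50, 18 within 10 kb, 7 within 1 kb and 16 by the wider interval. The co-localized share of 60% was 22.7% without a score threshold, 29.1% by the wider interval, 73.3% with abutting peaks joined, 78.2%, 76.4% and 45.5% at 10, 15 and 30 times input, and 81.8% against the genome mean input alone. The median highest ratio of 82.8 was 168 against the genome mean input alone, 36.9 within 10 kb and 22.3 within 1 kb. Regions with a half-site repeat were 3 with exact copies and 24 with 1 other letter. Bins with few input reads limit every ratio, and the RARα list holds no read counts.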
